A study of Rattus norvegicus with 56 samples.

Results

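The extracellular matrix genes of the rat mammary gland were followed across an RXR treatment, the stage of the oestrous cycle and pooled samples. The set holds the collagen chains (symbols of the form Col and numbers around an a), the laminin chains, the matrix metalloproteinases (Mmp), their tissue inhibitors (Timp), the ADAMTS proteases and fibronectin (Fn1). Members were picked by gene symbol, though the set was chosen with earlier results of these data known. Of the 10411 genes named on the array, 58 belonged to the set, on 79 probe sets. Each gene was represented by its probe set with the highest mean over the 24 arrays of individual rats, and 40 of the 58 genes had only 1 probe set. By role they were 10 fibrillar collagens, 6 basement membrane collagens, 8 collagens of the collagen VI and other short or network types, 5 fibril-associated collagens, 8 laminin chains, Fn1, 14 metalloproteinases, 3 Timps and 3 ADAMTS proteases.

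Mammary ducts and alveoli are wrapped in a basement membrane, a thin sheet in which networks of collagen IV and laminin are linked by nidogens and perlecan. Outside it, fibroblasts deposit fibrils of collagens I, III and V with fibronectin, and adipocytes carry a pericellular layer of their own. Metalloproteinases cut these proteins and Timps block the cut, and the balance is known for its part in duct growth and in the regression of the gland after weaning.

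The glands came from female Wistar Furth rats, an inbred strain, and each array measured RNA from the whole gland. Treated rats are labelled as having had an RXR treatment (RXR commonly stands for retinoid X receptor) and the remaining rats as control. No source used here names the compound, its dose, how long it was given or how old the rats were. The individual arrays covered 12 treated and 12 control animals, with 6 treated and 6 control pools of 2 rats, 4 treated and 4 control pools of 3 rats, and 1 mixture of all 12 rats per group on 4 arrays. Rat 3 of each group had 2 further repeat arrays. Pools were mixed after labelling from the same rats, so they share their animals with the individual arrays and are repeat measurements rather than new animals. At collection 6 treated rats were in diestrus and 6 were outside it (in proestrus, estrus or an unresolved stage of these), against 9 control rats in diestrus and 3 outside it. Values are the deposited log2 expression values, and a difference of 1 is a doubling.

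The 56 arrays had medians between 7.40 and 7.48. Markers of the gland were present, with per-rat means over 8 luminal epithelial markers of 9.92 to 10.5 in treated and 10.3 to 10.8 in control rats. The third repeat array of the control pool of 12 stood apart. Its correlation to the first array of that pool was 0.0801, against 0.565 to 0.820 for the other 5 repeats. For this, each probe set was centred on its mean over the individual rats. On a technical score drawn from the repeat arrays, that array read 12.45. The individual array of control rat 3, used in the main tests, read 12.46, and its 2 repeats -4.53 and -11.8. Treated rat 3 read 7.71, and its 2 repeats 6.45 and -14.2. Among the individual rats, control rat 5 was the lowest of the 12 control rats for 19 of the 58 matrix genes, and for all 9 of the collagen chains whose partners were compared (Col1a1, Col1a2, Col3a1, Col4a1, Col4a2, Col5a1, Col5a2, Col6a1 and Col6a2). Control rat 15 was the lowest for 17 matrix genes but for none of those 9. Differences without control rat 5 are given beside the main results on the collagens.

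The promoter sequences of the metalloproteinases that lie side by side on rat chromosome 8 are shown because Mmp3, which lies among them, had the largest spread between rats of the 58 genes. Windows are from RefSeq (build GRCr8), all on the plus strand and read 5′ to 3′, and capitals mark matches to the AP-1 letters TGANTCA and to the TATA letters TATAAA. The Mmp3 window (chr8:12925031-12925330) has 250 bases before and 50 after the transcript start, and the others run from 120 bases before to 30 after it: Mmp13 (chr8:12782709-12782858), Mmp12 (chr8:12866532-12866681), Mmp10 (chr8:12974587-12974736), Mmp8 (chr8:13008770-13008919) and Mmp7 (chr8:13132923-13133072).
Mmp3: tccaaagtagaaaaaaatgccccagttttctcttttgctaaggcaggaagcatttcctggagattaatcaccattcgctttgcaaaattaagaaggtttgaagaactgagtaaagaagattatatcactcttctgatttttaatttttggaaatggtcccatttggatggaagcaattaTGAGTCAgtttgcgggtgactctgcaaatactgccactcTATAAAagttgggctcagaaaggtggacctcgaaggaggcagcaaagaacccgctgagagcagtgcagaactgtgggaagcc
Mmp13: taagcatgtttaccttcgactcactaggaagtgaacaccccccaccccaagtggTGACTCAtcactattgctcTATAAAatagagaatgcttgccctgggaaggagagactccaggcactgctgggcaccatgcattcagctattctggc
Mmp12: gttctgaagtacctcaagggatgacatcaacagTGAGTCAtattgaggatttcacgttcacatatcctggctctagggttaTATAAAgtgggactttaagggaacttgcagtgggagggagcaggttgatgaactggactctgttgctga
Mmp10: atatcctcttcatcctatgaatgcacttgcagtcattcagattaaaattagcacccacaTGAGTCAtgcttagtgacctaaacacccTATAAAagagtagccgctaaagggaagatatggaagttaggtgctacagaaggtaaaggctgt
Mmp8: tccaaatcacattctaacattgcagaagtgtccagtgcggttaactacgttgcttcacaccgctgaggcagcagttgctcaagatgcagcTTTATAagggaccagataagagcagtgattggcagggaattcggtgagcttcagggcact
Mmp7: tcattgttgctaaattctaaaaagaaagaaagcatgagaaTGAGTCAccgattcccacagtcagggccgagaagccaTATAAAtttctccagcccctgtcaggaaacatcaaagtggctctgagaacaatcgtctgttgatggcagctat
All 6 windows hold TATA letters, on the other strand (TTTATA) in Mmp8. In the windows of Mmp3, Mmp13, Mmp12, Mmp10 and Mmp7 an AP-1 match begins 61 to 87 bases before the start, and the Mmp8 window has none. Over whole windows of 300 bases and both strands, AP-1 letters occurred in 7.33% of 27457 rat promoters, in 15.6% of the 45 members with a window and in 5 of 9 metalloproteinases. The TATA letters occurred in 14.3% of all promoters and in 6 of 9 metalloproteinases. A match of letters is a description of the sequence and not a site of binding.

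The collagen IV genes Col4a1 and Col4a2 are shown because they lie head to head and moved together between rats. The window of Col4a1 (chr16:84885347-84885646, plus strand) is printed with the 76 bases between the start of Col4a2, which runs leftwards, and the start of Col4a1 in capitals.
Col4a1: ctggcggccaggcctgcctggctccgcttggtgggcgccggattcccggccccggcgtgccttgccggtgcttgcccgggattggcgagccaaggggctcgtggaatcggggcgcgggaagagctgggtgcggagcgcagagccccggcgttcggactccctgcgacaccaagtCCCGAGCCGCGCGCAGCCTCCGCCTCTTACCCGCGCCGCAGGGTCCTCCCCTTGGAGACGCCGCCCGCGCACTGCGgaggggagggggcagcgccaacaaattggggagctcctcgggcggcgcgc
The windows of both genes share 176 bases. This window holds 2 matches to the GC box letters GGGCGG and 2 to CCAAT, and none to the AP-1 or TATA letters.

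The question of the main comparison was which matrix genes differ between treated and control glands. In individual rats 6 of the 58 matrix genes were higher in treated glands and none was lower at an adjusted p under 0.05 (limma, Benjamini-Hochberg over all 15866 probe sets). That is 10.3% of the members, beside 18.1% of all probe sets called in either direction, 8.46% higher and 9.59% lower; with 1 probe set for each of the 10411 genes the background was 20.2%, 9.81% higher and 10.4% lower. The 6 were the basement membrane collagens Col15a1 and Col4a2, the fibrillar collagens Col5a1 and Col5a3, and the proteases Mmp12 and Mmp24. The median difference over the 58 genes was 0.02, against -0.0025 over all probe sets, and 35 differences were above 0 and 23 below. A total of 18 of the 58 members had an unadjusted p under 0.05, beside 4618 of 15866 probe sets and 3344 of 10411 genes, shares of similar size. Without control rat 5, 5 members were called higher and 1, Col2a1, lower. In pools of 2 rats, 3 members were higher (Col15a1, Col4a1, Col4a2) and 3 lower (Lama3, Lama5, Col2a1), again 10.3%, beside 8.82% of all probe sets (5.15% higher, 3.67% lower). In pools of 3 rats, Col15a1 was higher and Lama3 lower, 3.45% of the members beside 6.24% of all probe sets (3.26% higher, 2.97% lower).

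**Figure D1:**
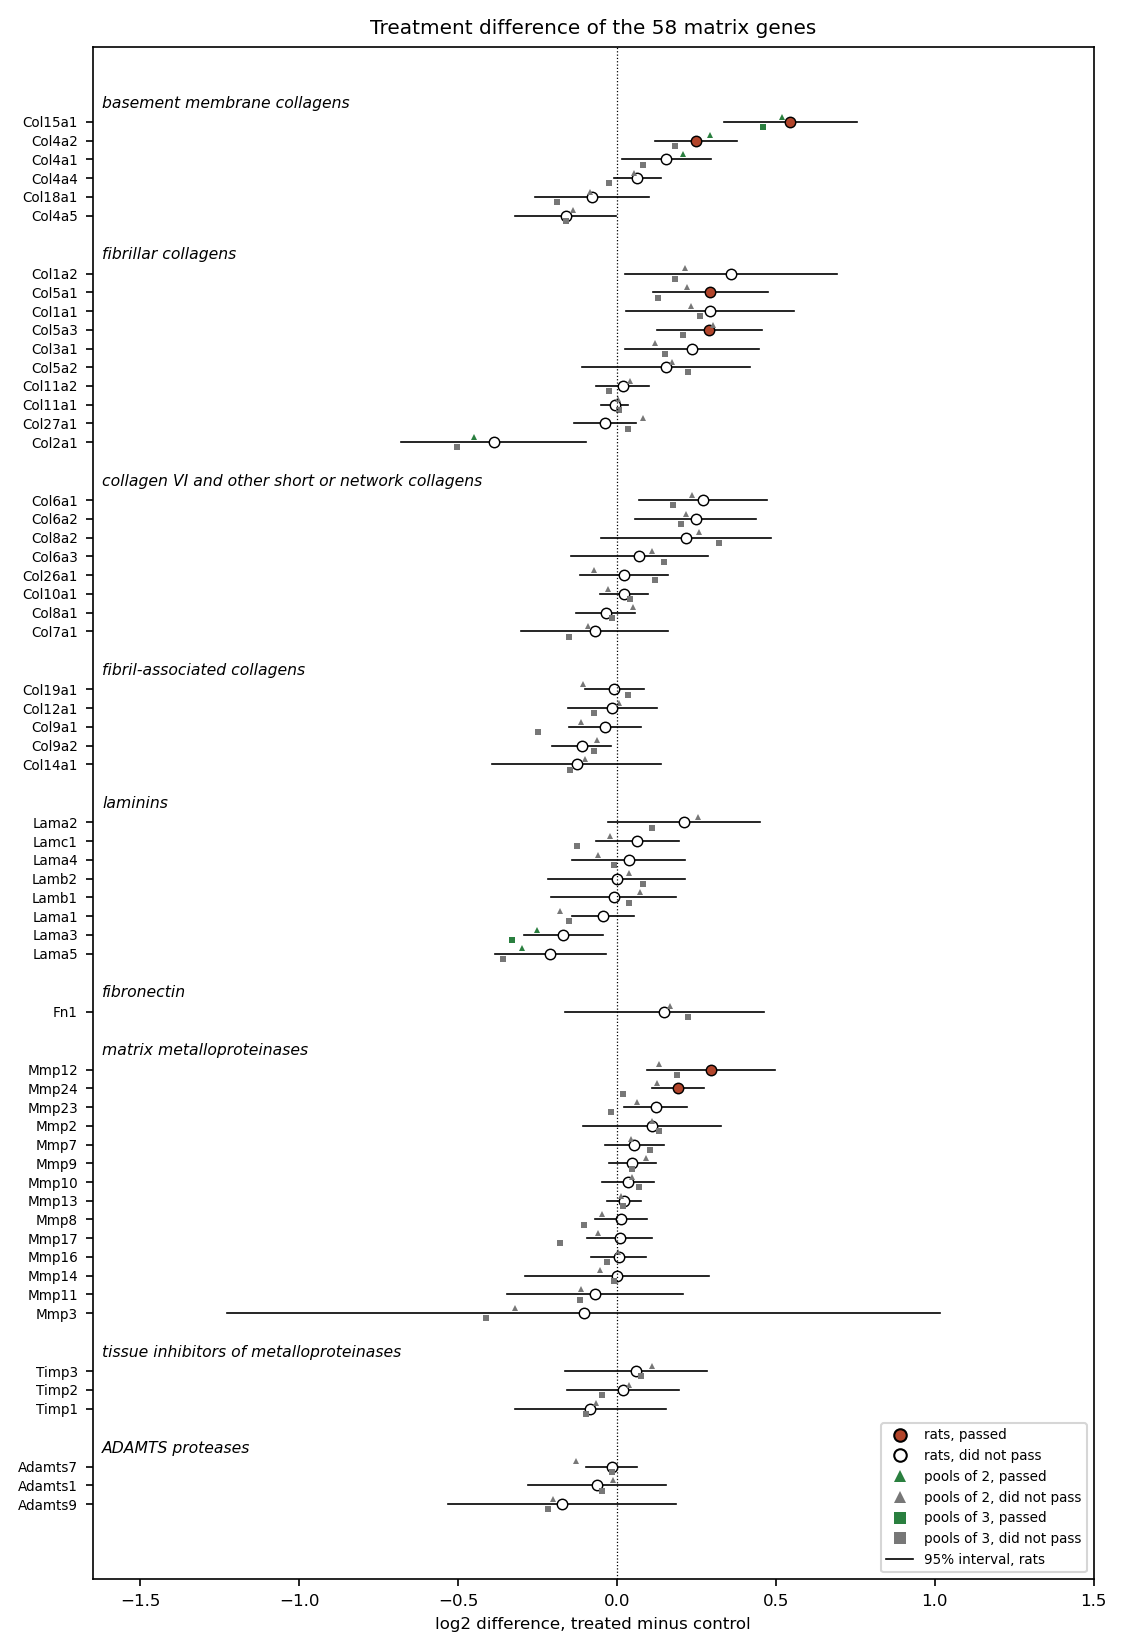
Difference between treated and control glands (log2, treated minus control, horizontal axis) for each of the 58 genes, grouped by role down the page. Circles are the 12 against 12 individual rats with the 95% interval, triangles the pools of 2 and squares the pools of 3; red circles and green symbols passed the test, and Col15a1 at 0.55 and Col2a1 at -0.39 mark the extremes in individual rats.

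The basement membrane collagens held the highest share of calls among the roles in individual rats, 2 of 6. Of all genes 20.2% were called and 9.81% were called higher, and a share of 6 genes rests on few calls. Col15a1 encodes collagen XV, a proteoglycan collagen that bridges basement membranes to neighbouring fibrils (GRCr8 chr5:66297546-66403172). Its lowest, median and highest values were 10.56, 11.15 and 11.54 in treated rats, against 10.31, 10.54 and 10.96 in control rats. The groups overlapped, but 9 of 12 treated rats lay above the highest control rat. The difference was 0.55 ± 0.10 (SE), a 1.46-fold higher level, with an adjusted p of 0.000351. In pools of 2 the values were 10.94, 11.155 and 11.46 in treated pools, against 10.38, 10.625 and 10.95 in control pools, with a difference of 0.52 (adjusted p = 0.00703). The 4 treated pools of 3 read 11.04, 11.15, 11.18 and 11.32, against 10.54, 10.65, 10.73 and 10.93 in the 4 control pools, and did not overlap (difference 0.46, adjusted p = 0.0117). How many of all probe sets lack overlap between the groups was not counted, so such separation is a description, here and for the genes below. The 4 arrays of the mixture of 12 ranged from 11.15 to 11.26 in the treated and from 10.52 to 10.69 in the control group. Col15a1 thus read higher in every kind of sample, each time from the same 24 rats, and no fit that left out 1 rat ended its call. Its difference in individual rats was 0.55 without control rat 5 (adjusted p = 0.000591).

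Col4a2 and Col4a1 encode the chains that twist together into the collagen IV network of most basement membranes. Col4a2 (chr16:84749672-84885520) had a lowest, median and highest value of 11.33, 11.545 and 11.75 in treated rats, against 10.91, 11.25 and 11.58 in control rats. All 12 treated rats lay above the control mean, and 4 above the highest control rat. The difference was 0.25 ± 0.06 (SE; adjusted p = 0.00606), and 0.22 (adjusted p = 0.00997) without control rat 5. Among pools of 2 the treated range of 11.57 to 11.70 lay wholly above the control range of 11.19 to 11.42 (difference 0.29, adjusted p = 0.00242). In pools of 3 the treated arrays read 11.60, 11.63, 11.63 and 11.66, against 11.31, 11.43, 11.51 and 11.54 in control arrays, also without overlap, but the difference of 0.18 did not pass (adjusted p = 0.143).

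Col4a1 (chr16:84885597-84996482) did not pass in individual rats on the probe set used, with 11.16, 11.50 and 11.62 in treated and 10.82, 11.305 and 11.54 in control rats and a difference of 0.16 ± 0.07 (adjusted p = 0.122). That difference was 0.11 without control rat 5 (adjusted p = 0.203). Its other probe set gave 0.30 with an adjusted p of 0.00491, so the call for Col4a1 depends on the probe set. Col4a1 was higher in pools of 2 by 0.21 (adjusted p = 0.0178), with 11.39 to 11.61 in treated and 11.26 to 11.42 in control pools. The other 3 genes of the class did not pass: Col4a4 differed by 0.06, Col18a1, the source of endostatin, by -0.08 and Col4a5 by -0.16. Adipocyte markers ranged in per-rat mean from 10.1 to 10.9 in treated and from 9.97 to 10.8 in control rats, and endothelial markers from 7.80 to 8.56 in treated and from 7.92 to 8.80 in control rats; their part in the basement membrane collagens was not tested.

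**Figure D2:**
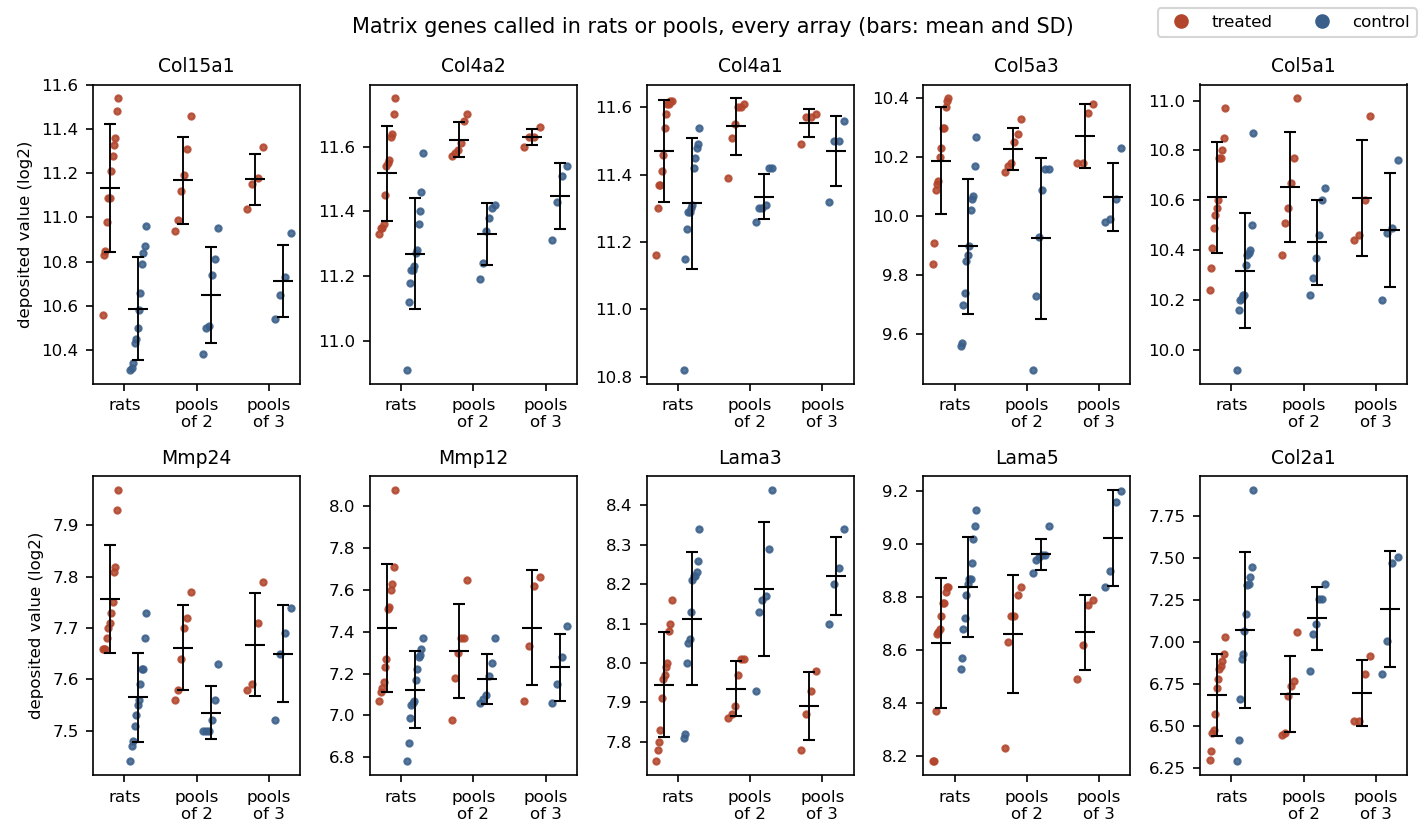
Deposited log2 value (vertical axis, scale set for each gene) of the 10 matrix genes that passed in rats or pools, 1 point per array, treated left of control within individual rats, pools of 2 and pools of 3; bars are the mean and SD. Treated pools of 3 lie wholly above control pools for Col15a1 and Col4a2 and wholly below for Lama3 and Lama5. How many of all probe sets separate in this way was not counted.

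Among the genes that bind or link these networks, listed as basement membrane partners, 3 of 6 measured genes rose, 1 fell and 2 did not pass. Of all genes 9.81% were called higher and 10.4% lower. Nid2, nidogen 2, which ties laminin to collagen IV, had the largest difference of the list. It read 10.02, 10.52 and 10.83 (lowest, median, highest) in treated rats, against 9.04, 9.22 and 9.64 in control rats, with no overlap. The difference was 1.25 ± 0.09 (SE; adjusted p = 2.33e-09), and 1.21 in pools of 2 and 1.11 in pools of 3 (adjusted p of 9.65e-06 and 5.43e-05). Hspg2, perlecan, read 9.01, 9.19 and 9.35 in treated and 8.58, 8.945 and 9.17 in control rats, a difference of 0.27 ± 0.05 (adjusted p = 0.00102). Agrn, agrin, read 9.25, 9.795 and 10.01 in treated and 9.85, 10.165 and 10.45 in control rats and fell by 0.39 ± 0.07 (adjusted p = 0.000297). Sparc, a collagen-binding matrix protein named here after its values were seen, was higher by 0.35 (adjusted p = 0.00994). Nid1, the other nidogen, differed by 0.05 and Bcam by -0.03.

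The laminin chains form the cross-shaped trimers of basement membranes, and none of the 8 passed in individual rats. Lama3, the alpha chain of the laminin that anchors epithelial cells, was lower in both kinds of pool. In individual rats its lowest, median and highest values were 7.75, 7.965 and 8.16 in treated and 7.81, 8.17 and 8.34 in control glands, and 11 of 12 treated rats lay below the control mean. The difference was -0.17 ± 0.06 (adjusted p = 0.0529). Lama3 in pools of 2 read 7.86 to 8.01 in treated and 7.93 to 8.44 in control pools, a difference of -0.25 (adjusted p = 0.0410). The treated pools of 3 read 7.78, 7.87, 7.93 and 7.98, all below the control pools at 8.10, 8.20, 8.24 and 8.34 (difference -0.33, adjusted p = 0.0193).

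Lama5, the alpha chain of another laminin laid down by epithelium and endothelium, had a similar order of values. Treated rats read 8.18, 8.705 and 8.84, against 8.53, 8.86 and 9.13 in control rats, a difference of -0.21 ± 0.08 (adjusted p = 0.0883). Its pools of 2 did not overlap, at 8.23 to 8.84 in treated and 8.89 to 9.07 in control pools, with a difference of -0.30 (adjusted p = 0.0434). Its pools of 3 did not overlap either, at 8.49, 8.62, 8.77 and 8.79 in treated and 8.84, 8.90, 9.16 and 9.20 in control pools, but the difference of -0.36 did not pass (adjusted p = 0.0550). A second probe set of Lama5, among the dimmest 25% of all probe sets, differed by 0.08 in individual rats (adjusted p = 0.273), 0.01 in pools of 2 and -0.01 in pools of 3, so the lower values are seen on 1 of its 2 probe sets. In pools of 2 the Lama3 call was lost in 11 of the 12 fits that leave out 1 array, all but the one without the control pool of rats 13 and 15 (adjusted p up to 0.0972), and the Lama5 call in 9 of them, all but those without the treated pools of rats 10 and 11, 2 and 3, and 4 and 7 (up to 0.0787). In pools of 3 the Lama3 call was lost in 3 of 8 such fits, without the treated pools of rats 12, 14 and 7 or 2, 3 and 5 or the control pool of rats 2, 3 and 5, with an adjusted p up to 0.067.

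Luminal epithelial markers were lower in the same glands. Of 8 listed, 7 fell in individual rats and none rose, with a median difference of -0.40, beside 10.4% of all genes called lower. Epcam, a surface protein of epithelial cells, read 11.23, 11.37 and 11.62 in treated and 11.57, 11.795 and 12.03 in control rats. In RNA of whole glands, fewer cells of a type and less RNA per cell cannot be told apart, and the part of epithelial content in the Lama3 and Lama5 values was not tested. Of the other laminin chains, Lama2, typical of muscle, nerve and stroma, differed by 0.21 ± 0.12 (adjusted p = 0.241). Lamb1 differed by -0.01 and Lamc1 by 0.06.

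The fibrillar collagens make the tensile fibrils of the stroma, and 2 of 10 passed in individual rats, namely 2 of the 3 chains of collagen V, which sets fibril width. That is 20% of the role, beside 20.2% of all genes called and 9.81% called higher. Col5a3 (chr8:27580768-27626002) read 9.84, 10.215 and 10.40 in treated and 9.56, 9.885 and 10.27 in control rats, a difference of 0.29 ± 0.08 (adjusted p = 0.0114). Col5a1 (chr3:31606475-31755097) read 10.24, 10.585 and 10.97 in treated and 9.92, 10.28 and 10.87 in control rats, a difference of 0.29 ± 0.09 (adjusted p = 0.0193). For each gene 11 of 12 treated rats lay above the control mean, and the groups overlapped. Without control rat 5 the difference was 0.26 for both, with adjusted p of 0.0225 for Col5a3 and 0.0365 for Col5a1. A second probe set of Col5a1 differed by 0.30 and did not pass (adjusted p = 0.148). The other collagen V chain, Col5a2, read 10.35, 10.645 and 11.27 in treated and 9.77, 10.535 and 11.32 in control rats. Its difference of 0.15 ± 0.13 did not pass (adjusted p = 0.481), and it was 0.08 without control rat 5. Neither Col5a3 nor Col5a1 passed in pools of 2, where Col5a3 differed by 0.30 (adjusted p = 0.0884) and Col5a1 by 0.22 (adjusted p = 0.230), and quantile normalization ended the Col5a1 call in individual rats (adjusted p = 0.0577).

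The major fibril chains did not pass. Col1a2 differed by 0.36 ± 0.16 (adjusted p = 0.138), with 12.04, 12.335 and 13.20 in treated and 11.16, 12.23 and 12.97 in control rats, and by 0.27 without control rat 5. Col1a1 differed by 0.29 (adjusted p = 0.126) and by 0.22 without that rat. Col3a1 differed by 0.23 (adjusted p = 0.120), and by 0.17 without that rat. In all 3 genes control rat 5 was the lowest control rat and treated rat 8 the highest treated rat. Of 7 fibroblast markers 2 rose (Thy1 and Dpt) and none fell, with per-rat means of 10.2 to 10.9 in treated and 9.99 to 10.8 in control rats; their part in the fibrillar collagens was not tested.

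Col2a1, the collagen of cartilage, had the largest negative difference of the 58 genes. It read 6.30, 6.755 and 7.03 in treated rats, all below the control mean, against 6.29, 7.12 and 7.91 in control rats. The difference was -0.39 ± 0.14 (adjusted p = 0.0582), and -0.45 (adjusted p = 0.0236) without control rat 5. Col2a1 was lower in pools of 2 by 0.45 (adjusted p = 0.0166), with 6.45 to 7.06 in treated and 6.83 to 7.35 in control pools. A second probe set of Col2a1 differed by -0.02 in individual rats, so the fall is seen on 1 of its 2 probe sets. Over all members, 21 further probe sets were measured, of which 1, for Col4a1, was called and 17 had the sign of the one used.

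Of the 8 collagens of the collagen VI and other short or network types, none passed. Col6a1 and Col6a2, chains of the beaded filaments around cells, came nearest. Col6a1 read 10.21, 10.525 and 10.93 in treated and 9.74, 10.28 and 10.76 in control rats (difference 0.27 ± 0.10, adjusted p = 0.0565). Col6a2 differed by 0.25 ± 0.09 (adjusted p = 0.0661). Without control rat 5 the differences were 0.22 for Col6a1 (adjusted p = 0.101) and 0.21 for Col6a2 (adjusted p = 0.118). Col8a2, a short-chain collagen, differed by 0.22 (adjusted p = 0.287), and by 0.25 without that rat. None of the 5 fibril-associated collagens passed, and all 5 differences were below 0: Col9a2 at -0.11 (adjusted p = 0.0942), Col14a1 at -0.13, Col9a1 at -0.04 and the others nearer 0. Without control rat 5 the differences were -0.12 for Col9a2, -0.17 for Col14a1 and -0.06 for Col9a1.

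Fn1, the fibronectin that cells pull into fibrils through integrins, did not pass. It read 10.71, 11.43 and 11.92 in treated and 10.37, 11.215 and 11.88 in control rats, a difference of 0.15 ± 0.15 (adjusted p = 0.586) with a 95% interval of -0.16 to 0.46. Without control rat 5 the difference was 0.07 (adjusted p = 0.814). In pools of 2 its difference was 0.17 and in pools of 3 it was 0.23, and neither passed.

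Of the 14 metalloproteinases, 2 rose and none fell in individual rats. That is 14.3%, beside 20.2% of all genes called and 9.81% called higher. Mmp24, a membrane-type enzyme best known from nervous tissue, read 7.66, 7.72 and 7.97 in treated and 7.44, 7.555 and 7.73 in control rats (chr3:164739226-164783696). All 12 treated rats lay above the control mean. The difference was 0.19 ± 0.04 (SE; adjusted p = 0.00114), while pools of 2 differed by 0.13 (adjusted p = 0.123) and pools of 3 by 0.02 (adjusted p = 0.948). With the probe set of largest spread in place of the brightest, the Mmp24 difference was 0.16 and the adjusted p 0.0509. The remaining probe set differed by 0.11 (adjusted p = 0.211), so the Mmp24 call is seen on 1 of its 3 probe sets. Mmp12, the elastase of macrophages (chr8:12866652-12876554), read 7.07, 7.39 and 8.08 in treated and 6.78, 7.12 and 7.37 in control rats, with 6 of 12 treated rats above the highest control rat. The difference was 0.30 ± 0.10 (adjusted p = 0.0355), while pools of 2 differed by 0.13 (adjusted p = 0.487) and pools of 3 by 0.19 (adjusted p = 0.495). In individual rats the call was lost in 11 of the 24 fits that leave out 1 rat (treated rats 2, 3, 5, 8, 9 and 12, control rats 5, 6, 9, 13 and 14). In those fits the adjusted p lay between 0.0503 and 0.0638, and it was 0.0567 without control rat 5. Of 5 macrophage markers 2 rose in individual rats (Csf1r by 0.30 and Lyz2 by 0.25), 3 did not pass (Cd68, C1qa and C1qb) and none passed in pools of 2 or of 3. Their per-rat means were 8.92 to 9.37 in treated and 8.71 to 9.26 in control rats; their part in the Mmp12 value was not tested.

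The enzymes usually placed at the centre of matrix turnover in the gland did not pass. Mmp2, the gelatinase of stromal cells, read 10.59, 10.86 and 11.49 in treated and 10.47, 10.79 and 11.29 in control rats, a difference of 0.11 ± 0.11 (adjusted p = 0.559). Mmp14, the membrane-type enzyme that activates pro-Mmp2, had equal means of 10.97, with an interval of -0.29 to 0.29. Mmp23 differed by 0.12 (adjusted p = 0.0851), with all 12 treated rats above the control mean. None of the inhibitors passed: Timp1 differed by -0.08 ± 0.12, Timp2 by 0.02 ± 0.09 and Timp3, the inhibitor that binds to the matrix, by 0.06 ± 0.11, with adjusted p of 0.707, 0.922 and 0.791. The 95% intervals were -0.32 to 0.15 for Timp1, -0.16 to 0.20 for Timp2 and -0.16 to 0.28 for Timp3. The 3 ADAMTS proteases, which cleave proteoglycans and related matrix proteins, did not pass either: Adamts1 differed by -0.06, Adamts7 by -0.02 and Adamts9 by -0.17.

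Mmp3, stromelysin 1, a broad protease that also activates other metalloproteinases, varied between rats more than any other member. Among treated rats it read 9.48 in rat 7, 9.37 in rat 4 and 8.78 in rat 11, then 7.35 in rat 6 and 6.98 in rat 10, and between 5.95 and 6.14 in the other 7. Among control rats it read 10.15 in rat 14 and 10.07 in rat 5, then 7.07, 7.03 and 6.99 in rats 10, 11 and 13, and between 6.0 and 6.68 in the other 7. High and low rats were thus present in both groups, and the treatment difference was -0.10 ± 0.55 (adjusted p = 0.934), and 0.16 without control rat 5. The SD between rats of a group was 1.43, the fourth largest of all 15866 probe sets, against 0.166 between repeat arrays of 1 sample. Of the 5 rats with the highest values, 4 were in diestrus and treated rat 11 was in estrus. Of all individual rats, 6 of 12 treated and 9 of 12 control rats were in diestrus.

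The pools carried the same pattern. To set an expected value for a pool, its rats' values were averaged on the linear scale and returned to log2. The treated pool of rats 4 and 7 read 9.32 for Mmp3, against 9.43 expected from its members. The control pool of rats 12 and 14 read 9.35 against 9.24 expected, and the control pool of rats 5 and 6 read 9.12 against 9.19. Over all pools the median absolute departure was 0.112 for the 12 pools of 2 and 0.174 for the 8 pools of 3. The mixtures of 12 read 7.27 to 7.51 in the treated and 7.29 to 7.81 in the control group, below the expected 7.74 and 8.04. The 7.29 came from the control repeat array that stood apart.

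The neighbours of Mmp3 had smaller SDs between rats. The 6 genes lie between positions 12782829 and 13140761 of chromosome 8. Their SD between rats was 0.053 for Mmp13, 0.254 for Mmp12, 0.096 for Mmp10, 0.098 for Mmp8 and 0.110 for Mmp7. For Mmp12 this was 2.09 times its repeat SD of 0.122 and larger than the SD of 91.9% of all probe sets. The mean levels of Mmp13 (4.74), Mmp10 (5.37) and Mmp8 (5.79) lay below 6.11, under which the dimmest 25% of probe sets fall, and that of Mmp7 (6.38) just above it. The highest values in any individual rat were 4.85 for Mmp13, 5.57 for Mmp10, 6.04 for Mmp8 and 6.60 for Mmp7. None of the 4 thus read as high as Mmp3 did in its highest rats, and signals this dim cannot show whether they varied by less. The neighbours Mmp13, Mmp10 and Mmp7 hold AP-1 and TATA letters in the windows printed above, as Mmp3 does.

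**Figure D3:**
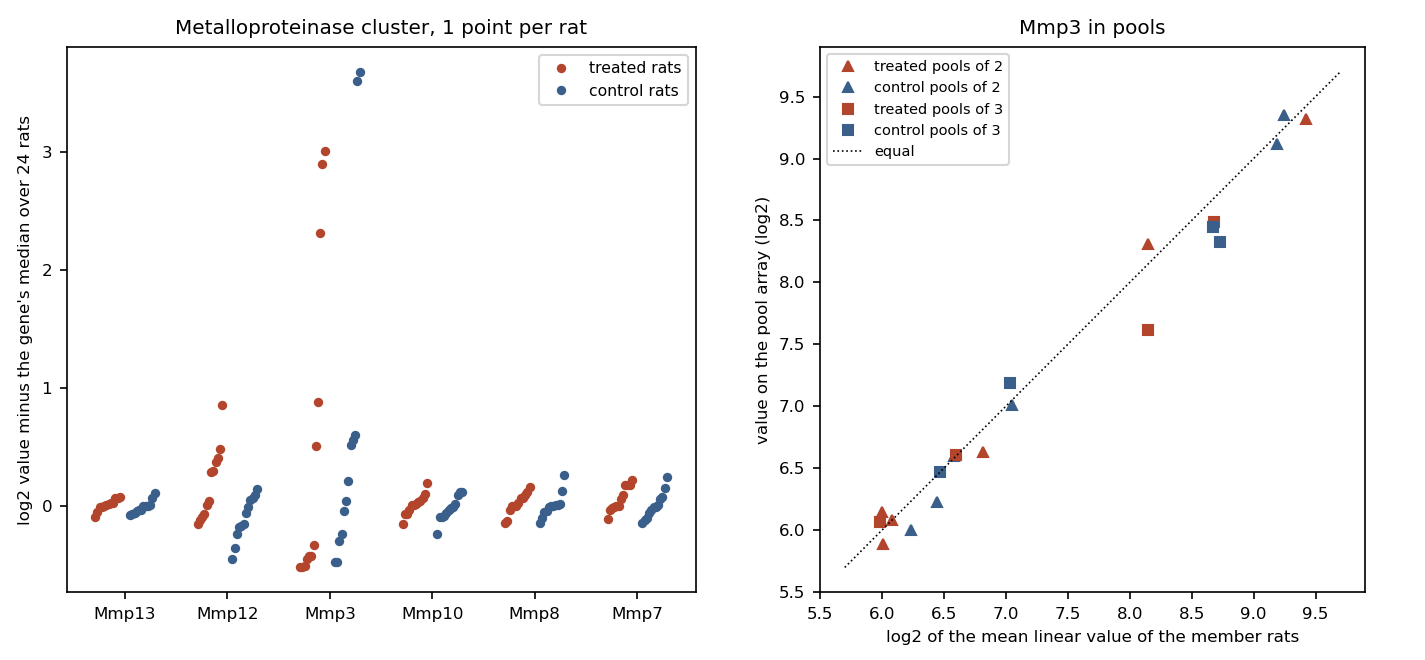
Left, log2 value minus the median of the 24 rats (vertical axis) for the 6 neighbouring metalloproteinases in chromosome order, 1 point per rat, treated left of control; only Mmp3 reaches above 2, in 3 treated and 2 control rats. Right, Mmp3 on each pool array (vertical axis, log2) against the value expected from its member rats (horizontal axis, log2), with a dotted line of equality; pools that hold a high rat read high.

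Mmp11, a stromelysin of stromal cells, had 1 rat far from the others. Control rat 10 read 8.09, while the other 11 control rats lay between 6.57 and 7.17 and the treated rats between 6.40 and 7.26. The pool of control rats 10 and 11 read 7.60, and the pool of 3 that adds rat 13 read 7.21, each the highest control pool of its size. The treatment difference was -0.07, and 0.04 without control rat 10.

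The median SD between rats was larger over the members than over all probe sets, but the sets compared are not alike. The median SD between rats of a group was 0.220 over the 58 members, against 0.117 over all probe sets, while the median SD between repeat arrays was 0.0921 and 0.0962. For 43 of 58 members the SD between rats exceeded the repeat SD, beside 63.1% of all probe sets. Each member was read on its brightest probe set, while all probe sets include dimmer ones of the same genes and those not listed. Whether members differ from other genes of similar brightness was not tested. After Mmp3 the largest SDs between rats were those of Adamts9 (0.46), Col1a2 (0.42), Fn1 (0.40), Col2a1 (0.37) and Mmp14 (0.37), each at least 3.78 times its repeat SD. These are descriptions with no test, and the repeat SDs include the control repeat array that stood apart.

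**Figure D4:**
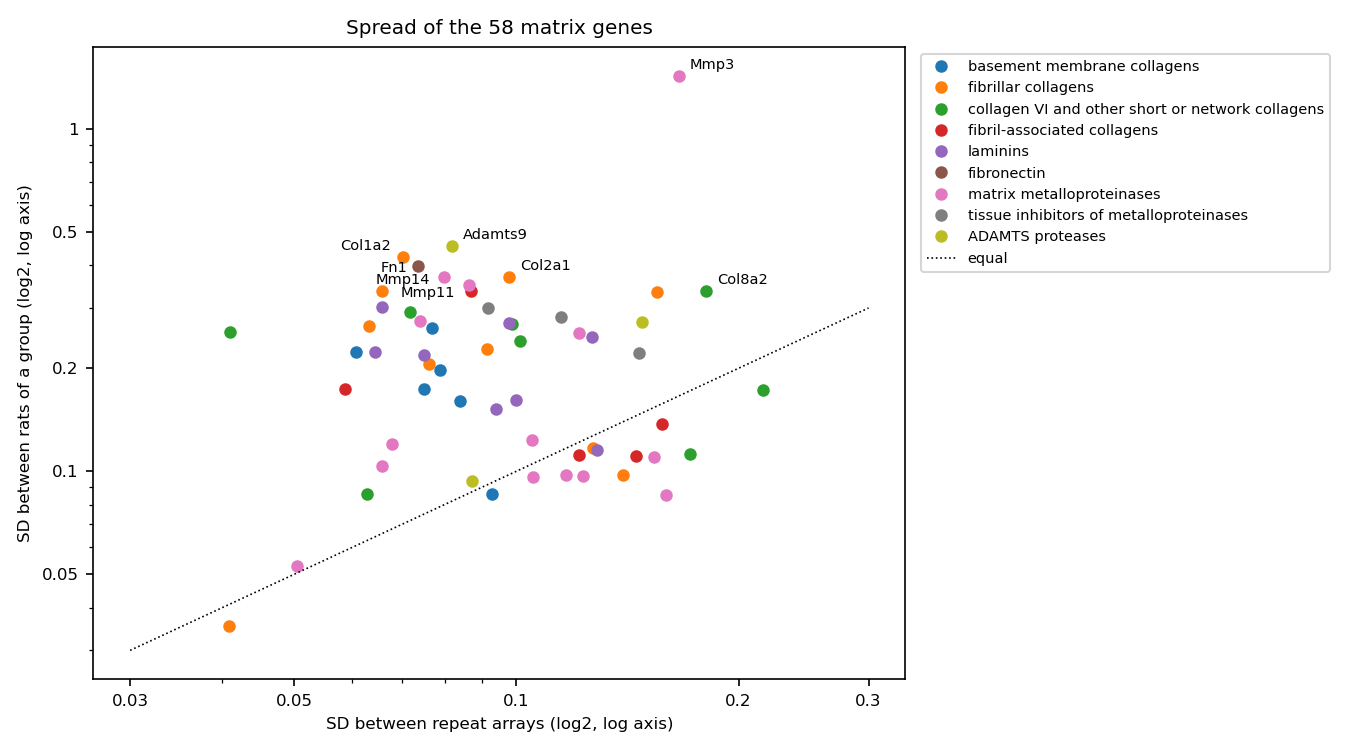
SD between rats within a group (vertical log axis, log2 units) against SD between repeat arrays of 1 sample (horizontal log axis, log2 units), 1 point per gene, coloured by role; the dotted line is equality. Mmp3 stands alone at 1.43, and 43 of the 58 genes lie above the line.

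Genes whose products work together were compared rat by rat, as deviations from the group mean over 24 rats, in 8 relations with permutation tests within groups. The fibril partners followed each other: Col1a1 with Col1a2 gave r = 0.896 (rho = 0.833) and Col1a1 with Col3a1 gave r = 0.910 (rho = 0.878). Col5a1 with Col5a2 gave r = 0.873 (rho = 0.800), Col4a1 with Col4a2 gave r = 0.854 (rho = 0.871) and Col6a1 with Col6a2 gave r = 0.856 (rho = 0.766). For these 5 relations the permutation p for r was 1e-05, the smallest that 100000 resamples can give, and 1.33e-05 after adjustment over the 8. The permutation p for rho lay between 1e-05 and 4e-05, at most 6.4e-05 after adjustment. Without the 2 rats farthest from the median of the first gene, r was 0.820, 0.823, 0.784, 0.790 and 0.785 in the order given. All values of a rat come from 1 array, so the genes of a relation share its amount and quality of RNA. Over all 1653 member combinations the median r was 0.102, with a range of -0.864 to 0.964. The largest lay above every r of the relations compared, so a high r is not particular to them. The combinations include genes among the dimmest 25% of probe sets, and are not a background of like brightness.

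The laminin chains Lamb1 and Lamc1, which pair in most laminins, gave r = 0.709 and rho = 0.688 (permutation p of 0.00024 and 0.00038, adjusted 0.000274 and 0.000434), and r = 0.735 without 2 rats. Mmp2 with its inhibitor and adaptor Timp2 gave r = 0.865 and rho = 0.787 (permutation p of 1e-05 and 6e-05, adjusted 1.33e-05 and 8e-05), and r = 0.816 without 2 rats. Mmp14 with Mmp2, activator and substrate, gave the weakest relation, r = 0.402 (permutation p and adjusted p of 0.0566) and rho = 0.430 (permutation p and adjusted p of 0.0421). Without 2 rats that r was 0.464. Within groups the same relation gave 0.408 in treated and 0.400 in control rats, and Col1a1 with Col1a2 gave 0.912 in treated and 0.885 in control rats.

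**Figure D5:**
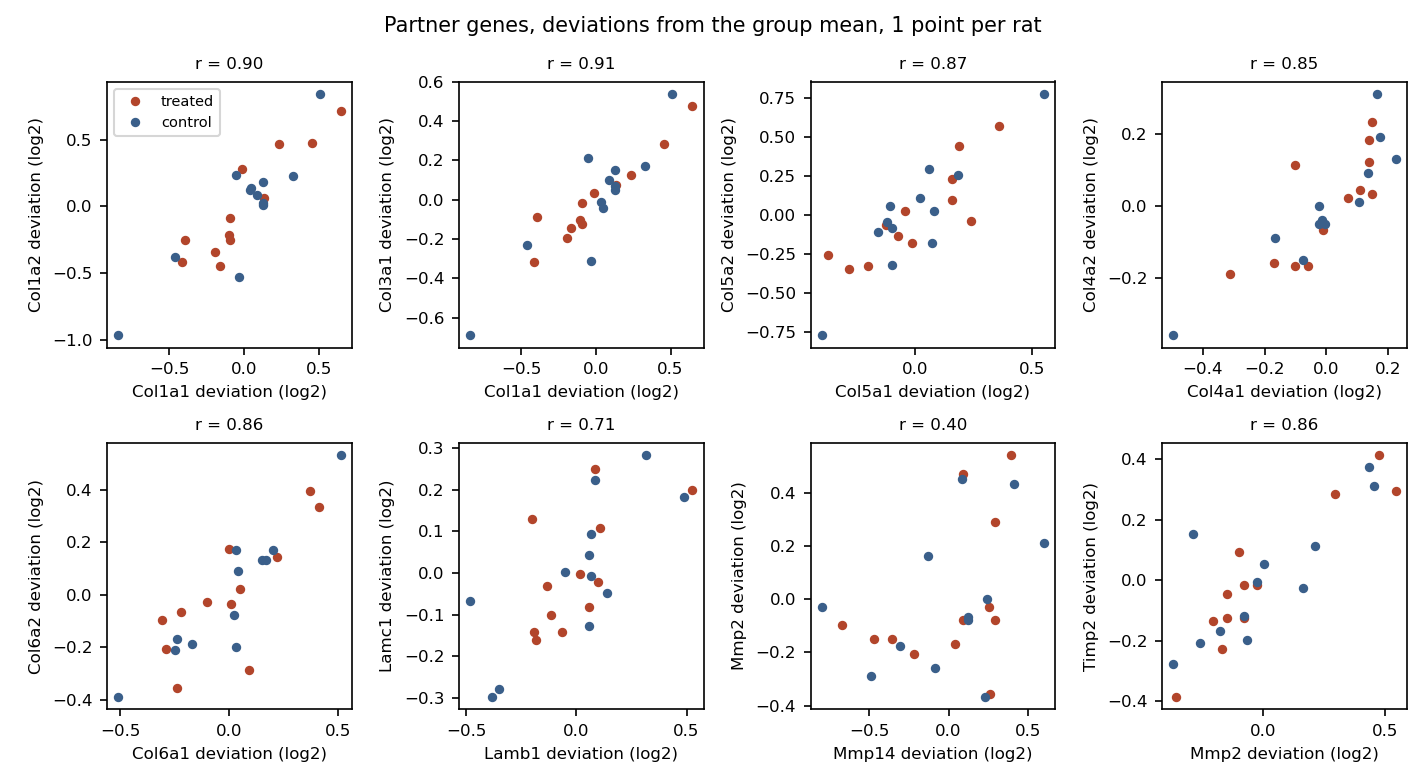
Deviation from the group mean (log2) of the second gene (vertical axis) against the first (horizontal axis) for the 8 relations, 1 point per rat, with r above each panel. Treated and control rats lie along the same diagonal in the collagen panels, where control rat 5 is the lowest point, and scatter widely for Mmp14 with Mmp2 (r = 0.40).

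The stage of the cycle was compared with treatment as a covariate, rats outside diestrus minus rats in diestrus. No member passed by limma, and none of the 15866 probe sets did (0%); unadjusted p lay under 0.05 for 1 member and for 581 probe sets. The 4 members with the smallest p were Col15a1, Mmp23, Mmp14 and Mmp17, with differences of -0.22, -0.09, 0.26 and 0.09. In treated rats Col15a1 had medians of 11.035 outside diestrus and 11.245 in diestrus, and in control rats of 10.34 outside and 10.66 in diestrus. Treated rats read higher than control rats at both stages, by 0.61 outside diestrus (adjusted p = 0.0892) and 0.59 in diestrus (adjusted p = 0.00599). Within diestrus Col15a1 and Mmp24 passed, 3.45% of members beside 8.73% of all probe sets (4.3% higher, 4.43% lower), and outside diestrus no member passed, beside 1.48% (1.2% higher, 0.284% lower).

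Whether treatment acted differently by stage was tested as an interaction, the difference outside diestrus minus that in diestrus. No member passed and no probe set did (0%); unadjusted p lay under 0.05 for 2 members and for 322 probe sets. Mmp11 had an interaction of -0.61 (unadjusted p = 0.0369), which was -0.14 without control rat 10, so 1 rat decided its size. Mmp16, a membrane-type enzyme, had -0.18 (unadjusted p = 0.0485). Timp1 had 0.44 (unadjusted p = 0.0748), with treated medians of 9.27 outside and 8.835 in diestrus, against control medians of 9.03 and 9.11.

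Other genes of the matrix pathway were counted by list. Of 18 measured genes of collagen processing and cross-linking, 1 rose and none fell. It was Lox, lysyl oxidase, which cross-links collagen and elastin, at 7.92, 8.265 and 9.40 in treated and 7.33, 7.725 and 8.45 in control rats (difference 0.63 ± 0.16, adjusted p = 0.00510). The next in the list, Plod1 and Loxl1, differed by 0.12 and 0.27 and did not pass. Of 14 matrix receptors, none rose and 3 fell: Sdc4 by 0.38, Sdc1 by 0.34 and Ddr1 by 0.25, the first 2 being syndecans and the last a collagen receptor of epithelial cells. The median over the 14 was -0.07.

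Of 17 genes of the plasmin system and protease control, none rose and 2 fell. Hpn, a transmembrane serine protease, fell by 0.16 and Plg, plasminogen, by 0.36, while Reck, a membrane anchor that inhibits metalloproteinases, differed by -0.23 (adjusted p = 0.0565). Of 15 genes of the TGF-beta axis, which drives collagen synthesis in many tissues, none rose and 4 fell, with a median of -0.11. Tgfb3 read 9.34, 10.205 and 10.49 in treated and 9.67, 10.61 and 11.10 in control rats and fell by 0.59 ± 0.15 (adjusted p = 0.00580). Smad4 fell by 0.20 and Ltbp2 by 0.19, and the fourth, Tgfbr1, named after its values were seen, fell by 0.17. Tgfb1 itself differed by 0.01. These shares, with 1 probe set per gene, stand beside 9.81% of all genes called higher and 10.4% called lower.

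Markers of further cell types were counted in the same way. Of 5 adipocyte markers 3 rose and 1 fell, of 5 basal epithelial markers 1 rose and 2 fell, of 6 endothelial markers 1 fell, of 8 mast cell markers 2 fell, of 6 Schwann cell markers 1 rose and 1 fell, and none of 7 skeletal muscle markers passed. The part of any of these in the matrix genes was not tested. All marker counts, the luminal, fibroblast and macrophage ones included, stand beside 9.81% of all genes called higher and 10.4% called lower.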

How the data were processed

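The matrix genes were read from the deposited log2 values of 56 Affymetrix rat arrays, per the file headers and the labels; the software and normalization behind them are not stated there. Per the labels' protocols 5 µg of RNA per rat was labelled, and equal amounts of target were combined to 10 µg for the pools. Later arrays of the pools of 12 carry a source label of an individual rat, and the titles were followed.

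Of 15923 probe sets, 57 controls were left out and 15866 tested; 12783 had 1 symbol, 312 several and 2771 were not listed, and 12748 were updated by Entrez ID. The number of arrays limits the precision. Each comparison was fitted with limma 3.58.1 in R 4.3.3 (lmFit and eBayes) on the deposited log2 values, individual rats, pools of 2 and pools of 3 apart, with adjusted p by Benjamini-Hochberg over all probe sets. The members, the lists and the tests were chosen with earlier results of these data known. Genes named were members that passed, the 3 with the smallest p of each role, the 4 for stage and 3 for the interaction, the 6 with the largest spread between rats, the partner genes and the top 3 of each pathway list; any other gene named was chosen after its values were seen. Relations used 100000 permutations in scipy 1.17.1. No arrays were identical, and replicates are separate rats. Rat numbers shared by both groups were not used as pairs in the main tests. Over 10 such numbers the correlation of deviations ran from -0.39 to 0.36, with a median of 0.12. For 1 number the treated rat correlated best with the control rat of its own number. A correlation over whole arrays cannot exclude a pairing. In simulated data, differences of 0.5 were recovered for 94% of changed probe sets in individual rats, 93% in pools of 2 and 80% in pools of 3. The simulation covered all 15866 probe sets, whose median SD between rats was 0.117. The members had a median of 0.220, so these shares need not hold for them or for smaller differences. Alternatives covered normalization, dim probe sets, array weights, stage, a technical score from the repeat arrays, the probe set used, the replicate block and leaving out each array. Treated rats had a mean score of 0.616 (range -10.04 to 8.19) and control rats of -0.616 (range -15.1 to 12.46).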

Additional observations from a re-analysis of the deposited data

Results flagged for a closer look

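Groups of 4 to 10 arrays were screened for 1 array far from the others, and 4 of 65 groups held one, where chance gives about 1 in 20. The treated pool of rats 2, 3 and 5 read 11.49 for Col4a1, below the other 3 treated pools of 3, of which the nearest read 11.57. The treated pool of rats 4 and 7 read 8.23 for Lama5, while the nearest of the other 5 treated pools of 2 read 8.63. Among treated rats outside diestrus, rat 2 read 8.38 for Mmp23, above the nearest value of 8.29. In the same 6 rats, rat 11 read 8.67 for Timp1, below the nearest value of 9.15.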

How the results depend on the processing

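Of the 314 alternatives to the 14 called gene results, 266 kept the call, 48 lost it and none reversed. In individual rats, where 6 members were higher and 0 lower, removing dim probe sets gave 2 lower and the technical score 1 lower. Array weights gave 11 called, 3 of them lower. Diestrus alone gave 2 called, all 2 higher, and rats outside diestrus gave 0 called and 0 higher, with fewer rats in each. The replicate block by rat number, on the rats of the 10 shared numbers, gave 12 called, 11 higher and 1 lower. Whether these numbers pair the rats is not known. Leaving out 1 array gave 5 to 9 called, 5 to 9 higher and 0 to 2 lower in individual rats, 4 to 7 called, 3 to 5 higher and 1 to 2 lower in pools of 2, and 1 to 3 called, 1 to 2 higher and 0 to 2 lower in pools of 3, where removing dim probe sets gave 2 lower. The median difference in the pools of 12 was 0.03, and 0.01 to 0.05 leaving out 1 array. Mmp14 with Mmp2 gave r = 0.557 (permutation adjusted p = 0.0054) with the technical score regressed out. The cause of these shifts was not tested.

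No called gene reversed; these uncalled differences did. Quantile normalization gave Mmp14 -0.068, Mmp16 -0.0032, Timp2 -0.048 and Timp3 -0.017. Array weights gave Mmp14 -0.019, Mmp16 -0.0093 and Mmp3 0.17. Stage as a covariate gave Lamb1 0.018, Mmp14 -0.064, Mmp17 -0.014 and Mmp3 0.075. Diestrus alone gave Adamts7 0.0072, Lamb1 0.033, Mmp11 0.13, Mmp17 -0.023 and Mmp3 0.063. Rats outside diestrus gave Adamts1 0.037, Col14a1 0.0067, Mmp14 -0.40, Mmp16 -0.097, Mmp2 -0.038, Mmp3 0.098, Timp1 0.17 and Timp2 -0.09. The technical score gave Lamb1 0.012, Mmp14 -0.0096, Mmp16 -0.0026 and Mmp17 -0.0052. The block gave Adamts1 0.065, Col14a1 0.016, Lamb1 0.075, Mmp17 -0.014, Timp1 0.063 and Timp3 -0.046. Leaving out 1 rat, Lamb1 ran from -0.058 to 0.034, Mmp11 from -0.11 to 0.045, Mmp14 from -0.073 to 0.061, Mmp16 from -0.016 to 0.023, Mmp17 from -0.020 to 0.024, Mmp3 from -0.33 to 0.17 and Timp2 from -0.018 to 0.054, and Mmp24 in pools of 3 from -0.026 to 0.048.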

Other observations

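Adamts9, a secreted protease of proteoglycans, was low in the rats in which Mmp3 was high, a pattern chosen after the values were seen. A correlation over all rats was computed but is not used here, because the Mmp3 values fall into separate clusters, and the values stand as a description. Adamts9 read 8.28, 8.41, 8.52, 8.57 and 8.28 in treated rats 4, 7, 11, 6 and 10, and 8.12, 8.36 and 8.26 in control rats 5, 14 and 10. In all other rats it read between 9.03 and 9.54. Mmp3 in those rats ranged from 6.98 to 10.15, and control rats 11 and 13, at 7.03 and 6.99 for Mmp3, were not among the low Adamts9 rats.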
